A study of Schizosaccharomyces pombe with 8 samples.

Results

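The subtelomeric genes of fission yeast (Schizosaccharomyces pombe) described here are the 60 features whose systematic name begins with SPAC212, SPAC977, SPAC186, SPAC750, SPBCPT2R1 or SPBC1348, the sequence clones that close the ends of chromosomes I and II. They were taken by name alone out of 6973 named features counted in each library. All 60 are annotated as protein-coding in RefSeq assembly ASM294v3, and all lie within 69.8 kb of an assembly end. There are 25 on the left end of chromosome I, 17 on its right end, 13 on the left end of chromosome II and 5 on its right end. The label therefore fits the annotated positions.

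The 8 libraries came from 2 strains that overexpress the meiotic RNA-binding protein Mei2 with a FLAG tag from the nmt1 promoter (Pnmt1-3xFLAG-Mei2). In the strain of interest, Mmi1, the protein that marks meiotic transcripts for elimination in mitotic cells, carried a TAP tag (Pnmt41-TAP-Mmi1). In the negative control it carried GFP in place of TAP (Pnmt41-GFP-Mmi1). RNA was sequenced from the whole-cell extract (WCE) and from a sequential immunoprecipitation (IP), first through the TAP tag and then through FLAG, of 2 biological replicates a strain. All cultures were growing exponentially in minimal medium at 30 °C and were crosslinked with 0.2% formaldehyde. Every group thus shares the overexpressed 3xFLAG-Mei2 and an Mmi1 expressed from the nmt41 promoter, and no strain without these alleles is among them.

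Library totals ran from 34416171 to 53709147 counts. Ribosomal RNA took 79.2% and 82.0% of the TAP-Mmi1 IP libraries, 96.0% and 96.4% of the GFP-Mmi1 IP libraries and 7.98% to 27.4% of the WCE libraries. The 60 genes together held 42008 and 34960 counts in WCE of TAP-Mmi1 cells and 19899 and 18883 in WCE of the control. Their sum was 7546 and 7861 counts for TAP-Mmi1 IP libraries and only 1530 and 1280 for those of the control. Values from the control IP therefore rest on the fewest counts.

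Subtelomeres are the chromosome stretches next to the telomeres. In S. pombe they are packed into heterochromatin, in which the methyltransferase Clr4 marks histone H3 and the HP1 proteins Swi6 and Chp2 bind that mark, and most of their genes are kept at low levels in growing cells. The outermost genes, tlh1 and tlh2, code for RecQ-type DNA helicases and hold sequence related to the centromeric repeats. Farther in lie genes for transporters, cell-surface glycoproteins and metabolic enzymes, many of them in several copies. Mmi1 binds RNA through the hexamer UNAAAC.

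Near-identical copies limit how counts can be read in these regions, so the shared sequence was measured first. Each gene was divided into all its 75-nt windows, the read length, and every window was looked up in the whole genome on both strands. All windows occurred once for 14 genes, at least 50% for 18 genes and none for 19 genes, and the median gene had 12.2% of its windows unique. In all, 41 genes shared at least 50% of their windows with another feature and fell into 18 copy groups. How the counting treated reads that fit several places is not given in the sources used here.

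The helicase genes are the clearest case. The annotated tlh1 (SPAC212.11) runs from the first base of chromosome I to base 5662 on the minus strand, and tlh2 (SPBCPT2R1.08c) covers bases 4526885 to 4532899 of chromosome II on the plus strand. Over the 5662 bases they have in common they differ at 1 base, C303T, counted from the 5′ end of the tlh1 span and given as the tlh1 base first. Both stretches are printed because, within that span, only a read across the capital letter can tell these genes apart. Both lie in coding sequence.
tlh1, chrI:5323-5397, minus strand: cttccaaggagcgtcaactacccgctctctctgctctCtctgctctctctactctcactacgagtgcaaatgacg
tlh2, chrII:4527150-4527224, plus strand: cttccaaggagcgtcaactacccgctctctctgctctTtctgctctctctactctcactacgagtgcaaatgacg

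The second set of sequences comes from 2 L-asparaginase genes, whose product turns asparagine into aspartate and ammonia. SPAC186.03 (chrI:5535179-5536432, plus strand) was the only gene of the 44 tested that was called higher in IP/WCE over the control under the main scaling, and SPAC977.12 (chrI:56492-57736, plus strand) codes for the same enzyme at the other end of chromosome I. UNAAAC, written TNAAAC in DNA, was searched on the sense strand with overlaps allowed. SPAC186.03 held 4 matches, at positions 193, 269, 1210 and 1221 of its 1254-nt span, of which the first pair is coding and the last pair lies after the coding sequence. SPAC977.12 held 3 matches, all coding. Capitals mark the matches.
SPAC186.03, chrI:5535359-5535388: ttcatccagcacTGAAACagttgactatgc
SPAC186.03, chrI:5535435-5535464: atcaagaactttTCAAACattcgtggagtc
SPAC186.03, chrI:5536376-5536405: attaaatttaaaTAAAACtcaagTCAAACt
SPAC977.12, chrI:56784-56813: ctgctgatgtccTAAAACtagctaaattga
SPAC977.12, chrI:56978-57007: cctatgaatttgTTAAACgctgttgctgtg
SPAC977.12, chrI:57210-57239: acatttataacaTTAAACaactaccacgag

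The hexamer does not set the genes apart. It occurred in 52 of the 60 (86.7%), in 85.6% of the 6813 listed features with an annotated sequence and in 90.7% of the 5105 protein-coding ones. The median density was 1.38 matches per kb in the subtelomeric genes and 1.65 in protein-coding genes. A match is a description of the sequence, not a binding site.

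**Figure D1:**
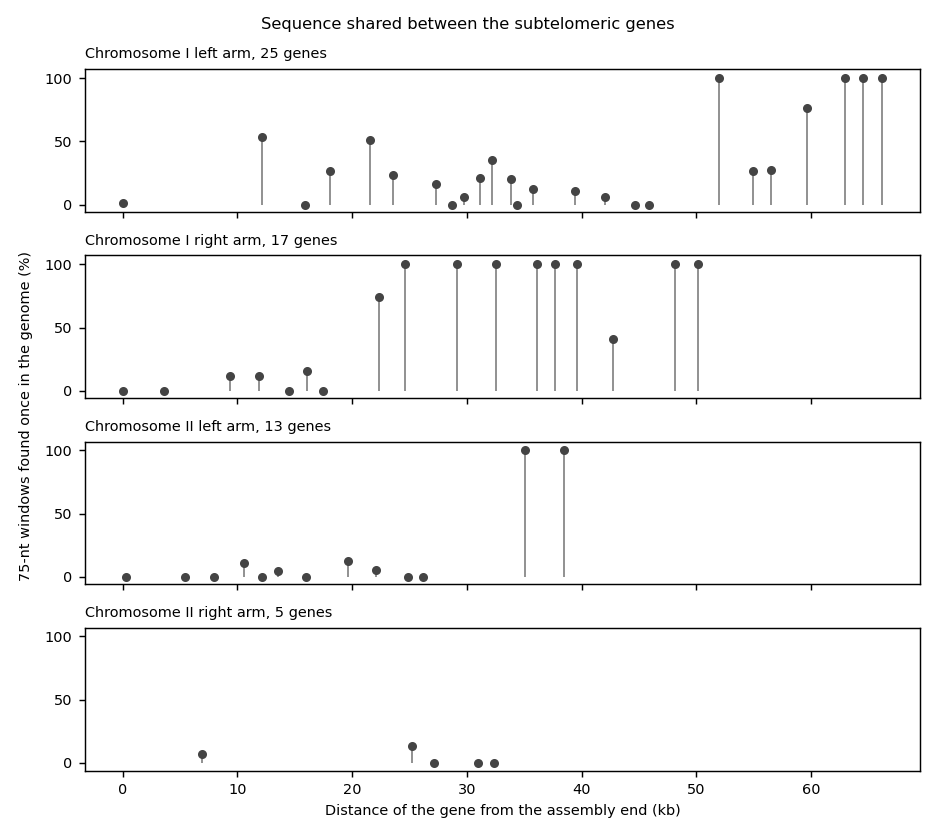
Share of each gene's 75-nt windows that occur once in the genome (vertical axis, %) against the distance of the gene from the assembly end (horizontal axis, kb), 1 panel for each of the 4 chromosome ends and 1 point for each of the 60 genes. Genes close to an end have few unique windows, and the 14 genes at 100% all lie 24.6 kb or more from it.

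Levels in the WCE were given as CPM per kb, the count scaled to the library total and to the annotated span, as the mean and SD of 2 replicates. The genes were rare. Their median over the 4 WCE libraries was 0.792 CPM per kb, against 38.8 for the 5105 protein-coding genes, and only 2 of the 60 exceeded that median. The highest were all from the SPAC977 clone, 52.0 to 66.2 kb from the left end of chromosome I.

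SPAC977.14c, an aldo-keto reductase, reached 148 ± 9.14 CPM per kb in TAP-Mmi1 and 99.7 ± 8.68 in GFP-Mmi1 cells. The asparaginase gene SPAC977.12 reached 57.7 ± 3.13 and 77.9 ± 7.47. The sodium/proton antiporter gene nhe1 followed with 24.6 ± 2.07 and 32.0 ± 3.40, the dihydroxyacetone kinase gene dak2 with 35.1 ± 2.87 and 15.8 ± 0.743, and SPAC977.17, a membrane channel gene of the MIP superfamily, with 21.4 ± 1.82 and 11.97 ± 0.455. These levels are scaled to totals that include rRNA, and the strain comparison uses another scale. The 5 genes held 60.5% to 69.0% of all counts of the 60 genes in the WCE libraries.

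At the low end, ftm2 and ftm6 of the subtelomeric transmembrane (ftm) family, the Vel1p domain gene SPAC977.05c, the hydroxyacid dehydrogenase gene SPAC186.07c and the lactate dehydrogenase gene SPAC186.08c had the lowest levels among the 56 genes with a count in every WCE library. Their counts ran from 1 to 7 a library, and the lowest mean level, that of SPAC186.08c, was 0.0737 CPM per kb. The span of SPAC186.07c overlaps the noncoding RNA prl61 on the opposite strand over 40.9% of its length.

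The first comparison asked whether the strains differed in the whole-cell RNA of these genes. A quasi-likelihood test (edgeR) was fitted to all features of the 4 WCE libraries, after scaling by the trimmed mean of M values (TMM) and a filter on low counts, and p-values were adjusted over all 6805 features tested by the Benjamini-Hochberg method. A gene passed at an adjusted p under 0.05, and positive log2 values mean a higher level in TAP-Mmi1 cells. Normalised CPM are counts scaled to the TMM library sizes. In bulk RNA, fewer cells with a transcript and less of it per cell cannot be told apart.

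Of the 60 genes, 44 had enough counts to be tested. In the TAP-Mmi1 WCE, 8 were higher (18.2%, against 13.0% of all features tested) and 4 were lower (9.09%, against 10.5%). The median log2 difference of the 44 was 0.17, against 0.00 over all features, and −0.11 when scaled by library totals. Both shares are near the background. With an added limit of 1 on the absolute log2 value, chosen after seeing the data, 6 genes were higher (13.6%, against 0.940% of all features) and 3 were lower (6.82%, against 0.632%). Nothing is read from these shares, since that limit was set with the values known. They also count the identical genes SPAC212.12 and SPAC750.07c, and the copies SPAC977.06 and SPBC1348.07, as separate genes. How far copies account for the shares was not tested. The filter let 2 of the 44 pass through the TAP-Mmi1 libraries alone and 4 through the GFP-Mmi1 libraries alone, and SPAC750.08c is 1 of the former. A gene near the minimum is thus tested more readily where 1 strain is high. In an edgeR fit over all 8 libraries, whose replicates vary more, 2 genes (SPAC977.17 and tlh2) were higher (4.55%) and none was lower. Of all features, 20 were higher (0.293%) and 4 lower (0.0586%). At an unadjusted p under 0.05, 11 of the genes were higher and 2 lower. The shares of all features at that threshold are not given here, so nothing is read from these 2 counts. With library totals in place of TMM, which shifted the median of all features by −0.27, 9 were higher (20.5%, against 2.56% of all features) and 8 lower (18.2%, against 18.2%). More genes were called higher without either TAP-Mmi1 replicate, and fewer were called lower without either GFP-Mmi1 replicate. The shares of all features in those fits are not given here, so no result is read from these shifts.

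The helicase genes tlh1 and tlh2 lay far apart between strains but did not pass. Normalised CPM of tlh1 was 81.3 and 85.1 in TAP-Mmi1 WCE and 5.63 and 17.5 in GFP-Mmi1 WCE. That of tlh2 was 88.7 and 92.6 against 6.81 and 18.7. The TAP-Mmi1 replicates were close to each other and lay above both control replicates, which lay far apart. The log2 difference was 2.85 ± 0.67 (SE; edgeR adjusted p = 0.11) for tlh1 and 2.83 ± 0.61 (adjusted p = 0.097) for tlh2. With both genes counted as 1 feature, the counts were 9045 and 7381 against 506 and 1433, and the difference was 2.84 ± 0.68 (adjusted p = 0.11). DESeq2 gave an adjusted p of 0.0011 for tlh1 and 3.1e-04 for tlh2. Without GFP-Mmi1 replicate 1 the log2 values were 2.25 and 2.28, and without GFP-Mmi1 replicate 2 they were 3.89 and 3.73.

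A second helicase-like gene did pass. SPAC212.06c, 18.1 kb from the left end of chromosome I, shares 29.1% of its windows with tlh1 and tlh2. Only 26.4% of its windows are unique. It stood at 2.43 and 2.67 normalised CPM in TAP-Mmi1 WCE and at 0.442 and 0.328 in the control. The groups did not overlap, and the log2 difference was 2.71 ± 0.26 (edgeR adjusted p = 0.0014). The counts behind it were 129 and 111 against 18 and 13.

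The largest difference was that of SPAC750.08c, annotated as an NAD-dependent malic enzyme, which closes the right end of chromosome I and has no window found once. It had 71 and 108 counts in WCE of TAP-Mmi1 cells against 3 and 9 in the control, a log2 difference of 3.68 ± 0.57 (edgeR adjusted p = 0.0085). It was 1 of the genes that passed the filter through TAP-Mmi1 alone. Without GFP-Mmi1 replicate 1 the log2 difference of SPAC750.08c was 3.09 (adjusted p = 0.071), and without replicate 2 it was 4.68.

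A pair of identical genes was higher too. SPAC212.12, annotated as a glycosylphosphatidylinositol-anchored protein, and SPAC750.07c, annotated as uncharacterized, lie at opposite ends of chromosome I, have the same sequence over all 372 nt and share 71.8% of their windows with SPAC212.08c, which codes for another anchored protein. Normalised CPM of SPAC750.07c was 3.16 and 2.96 in TAP-Mmi1 WCE and 1.43 and 0.933 in the control, a log2 difference of 1.37 ± 0.24 (edgeR adjusted p = 0.0099). For SPAC212.12 the values were 2.48 and 2.79 against 1.52 and 0.706, a difference of 1.24 ± 0.35 (adjusted p = 0.048). In neither gene did the strains overlap. Both calls were lost without GFP-Mmi1 replicate 2, at 1.10 (adjusted p = 0.090) for SPAC750.07c and 0.79 (adjusted p = 0.19) for SPAC212.12, and without replicate 1 the values were 1.71 and 1.90. Summed as 1 feature the 3 copies gave 1.29 ± 0.31 (adjusted p = 0.037).

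The most precise differences came from dak2 and SPAC977.17, which lie 64.6 and 66.2 kb from the left end of chromosome I and whose windows are all unique. Normalised CPM of dak2 was 79.4 and 84.3 in TAP-Mmi1 WCE and 30.9 and 29.7 in the control. The groups lay far apart, and the log2 difference was 1.43 ± 0.06 (edgeR adjusted p = 8.5e-05). SPAC977.17 stood at 82.2 and 86.9 against 39.6 and 38.5, a difference of 1.11 ± 0.05 (adjusted p = 1.5e-04). It was the only called gene of the 12 that passed under every alternative run, the fit over all 8 libraries included. Both genes overlap by 454 nt on opposite strands, and as the use of strand in the counting is not given in the sources used here, reads in the overlap cannot be told apart.

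The aldo-keto reductase genes followed the same direction. SPAC977.14c stood at 191 and 209 normalised CPM in TAP-Mmi1 WCE against 116 and 106, a log2 difference of 0.85 ± 0.07 (edgeR adjusted p = 7.7e-04). SPAC750.01, an aldo/keto reductase gene on the right end of the chromosome that shares 26.2% of its windows with SPAC977.14c, stood at 12.03 and 13.6 against 6.85 and 6.33, a difference of 0.96 ± 0.12 (adjusted p = 0.0029). In both genes the replicates of a strain lay close together and the strains did not overlap.

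In the other direction, SPAC186.02c, a hydroxyacid dehydrogenase gene whose windows are all unique, had 135 and 127 counts in WCE of TAP-Mmi1 cells and 405 and 465 in the control. Normalised CPM was 2.54 and 3.06 against 9.95 and 11.7, so that both TAP-Mmi1 replicates lay below the control. The log2 difference was −1.96 ± 0.16 (edgeR adjusted p = 7.7e-04).

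A pair of related uncharacterized genes was lower as well. SPBC1348.07 stood at 0.733 and 0.506 normalised CPM against 1.70 and 1.67 (log2 −1.42 ± 0.27, edgeR adjusted p = 0.013). SPAC977.06 stood at 0.414 and 0.530 against 0.884 and 1.21 (log2 −1.16 ± 0.32, adjusted p = 0.041). Leaving out either GFP-Mmi1 replicate ended both calls, with adjusted p-values of 0.12 and 0.10 for SPBC1348.07 and 0.15 and 0.29 for SPAC977.06. Summed with 2 related features elsewhere, their counts were 97 and 72 against 200 and 226, and the difference was −1.57 ± 0.17 (adjusted p = 0.0021).

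The uncharacterized gene SPAC212.04c showed the smallest called difference. It stood at 11.6 and 10.8 normalised CPM against 17.6 and 15.6 (log2 −0.57 ± 0.10, edgeR adjusted p = 0.0082). Its call was lost without either GFP-Mmi1 replicate (adjusted p = 0.12 and 0.0505).

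**Figure D2:**
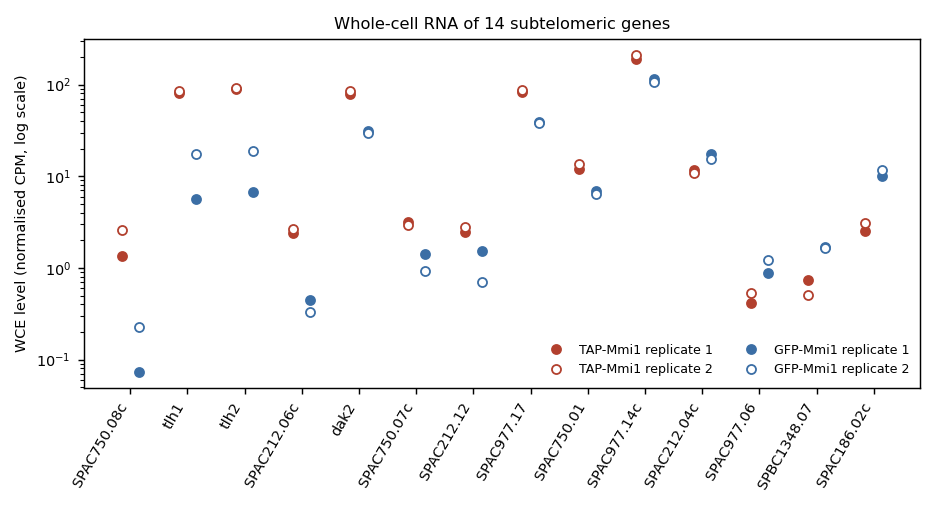
WCE level (normalised CPM, log scale) in each of the 4 WCE libraries for the 12 genes that passed the test and for tlh1 and tlh2, ordered by log2 difference. Red points are TAP-Mmi1, blue points GFP-Mmi1, filled points replicate 1 and open points replicate 2. The control replicates of tlh1, at 5.63 and 17.5, lie far apart while the TAP-Mmi1 replicates, at 81.3 and 85.1, nearly coincide.

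By chromosome end, read against the 13.0% higher and 10.5% lower of all features, the counts were small. On the left end of chromosome I, 5 of 18 tested genes were higher and 2 were lower. On its right end 3 of 14 were higher and 1 was lower. On the left end of chromosome II edgeR called none of 9 higher and 1 lower, none was higher at an unadjusted p under 0.05 and DESeq2 called none higher. On the right end of chromosome II edgeR called none of 3, although 2 were higher at an unadjusted p under 0.05 and DESeq2 called 1. The median log2 differences of the 4 ends were 0.39, 0.17, 0.10 and 0.52 in the same order. No test of a difference between the ends was run.

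The left end of chromosome II carries copies of several genes of the left end of chromosome I, so their values can be set side by side. The phospholipase gene plb4 had 980 and 758 counts in TAP-Mmi1 WCE and 725 and 585 in the control, and its copy SPBC1348.10c had 953 and 814 against 753 and 590. The log2 differences were 0.17 ± 0.10 and 0.17 ± 0.12, and neither passed (edgeR adjusted p = 0.25 and 0.32). A family of 5 uncharacterized genes (SPAC212.01c, SPAC750.06c, SPBC1348.01, SPBCPT2R1.01c and SPBCPT2R1.04c), with 1 or 2 copies at each end, ranged from 0.00 to 0.52. Its sum was 1518 and 1139 counts against 827 and 973, a difference of 0.32 ± 0.10 (adjusted p = 0.057).

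Well-counted genes between them showed no call. The antiporter gene nhe1 differed by −0.10 ± 0.07 (edgeR adjusted p = 0.35), the fluoride export gene fex1 by −0.19 ± 0.09 (adjusted p = 0.16) and the asparaginase gene SPAC977.12 by −0.15 ± 0.07 (adjusted p = 0.18). They lie 52.0 to 56.5 kb from the left end of chromosome I, just outside the called genes SPAC977.14c, dak2 and SPAC977.17. Of the other genes that did not pass, SPAC186.04c had the lowest value (log2 −1.08 ± 0.40, edgeR adjusted p = 0.092) and, after tlh1 and tlh2, SPAC212.08c the highest (1.23 ± 0.44, adjusted p = 0.091). The transcription factor gene SPBC1348.12 stood near 0, with 68 and 46 counts against 47 and 43 (0.10 ± 0.24, adjusted p = 0.79).

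**Figure D3:**
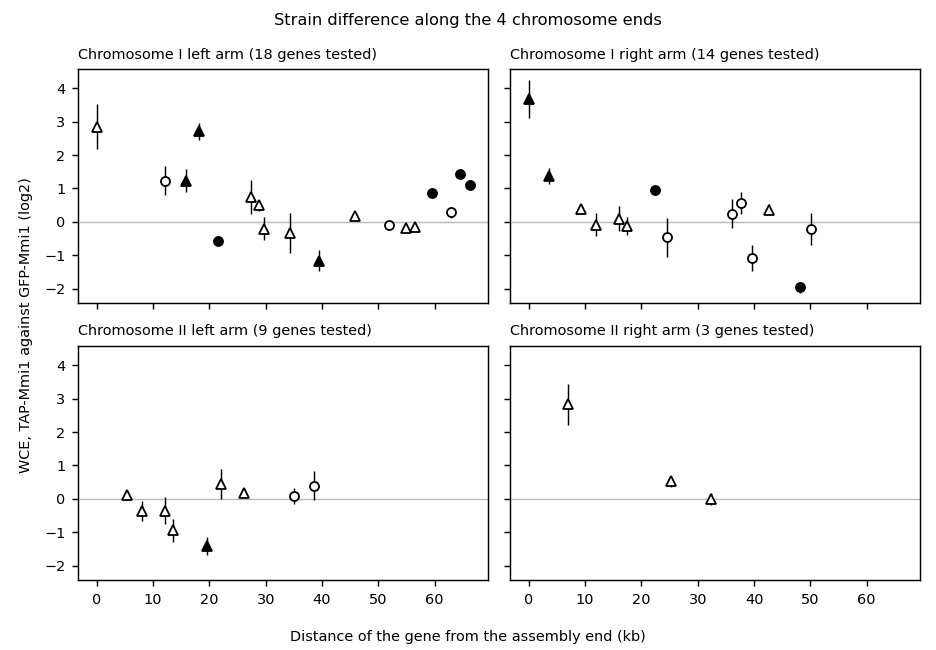
Log2 WCE difference of TAP-Mmi1 against GFP-Mmi1 (vertical axis, bars are SE) by distance from the assembly end (horizontal axis, kb), 1 panel for each chromosome end, for the 44 genes tested. Filled symbols passed the test; circles have at least 50% of their 75-nt windows unique and triangles fewer. The largest values, 3.68 for SPAC750.08c, 2.85 for tlh1 and 2.83 for tlh2, belong to the outermost tested gene of 3 of the 4 ends.

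For comparison, 104 other listed features lie within 100 kb of these ends. Of the 80 tested, 18 were higher (22.5%) and 23 were lower (28.8%) in TAP-Mmi1 WCE, with a median log2 of −0.15. Of 32 factors of heterochromatin silencing and telomere protection, 4 were higher (12.5%, against 13.0% of all features) and 3 lower (9.38%, against 10.5%), with a median of 0.06. With library totals edgeR called 0 of the factors higher (against 2.56% of all features), also at an unadjusted p under 0.05, and 3 lower (9.38%, against 18.2%). Over all 8 libraries it called none (against 0.293% of all features higher and 0.0586% lower), with 1 higher and 2 lower at an unadjusted p under 0.05. The factors that passed, named after their values were seen, moved little. The HP1 protein gene chp2 differed by 0.45 ± 0.08 (edgeR adjusted p = 0.0080), chp1, which codes for a chromodomain subunit of the RNAi effector complex RITS, by 0.26 ± 0.05 (adjusted p = 0.014), the anti-silencing gene epe1 by 0.21 ± 0.06 (adjusted p = 0.039) and the shugoshin gene sgo2 by 0.23 ± 0.06 (adjusted p = 0.028). The methyltransferase gene clr4 differed by −0.34 ± 0.07 (adjusted p = 0.019), cid12, which codes for a noncanonical poly(A) polymerase of the RNAi pathway, by −0.46 ± 0.06 (adjusted p = 0.0028) and the shelterin gene ccq1 by −0.18 ± 0.05 (adjusted p = 0.037). Whether these differences have any part in those of the subtelomeric genes was not tested.

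The second comparison asked which RNAs the sequential IP recovered relative to the WCE, and whether the TAP-Mmi1 strain recovered more than the control. It was fitted with edgeR over all 8 libraries, 6827 features and 44 of the 60 genes, 43 of them also tested in the WCE fit. Only 14 of the 44 reached the minimum count in both GFP-Mmi1 IP libraries, against 29 in both TAP-Mmi1 IP libraries. The ratios are relative to the bulk of the features, which TMM places near 0. Scaled by library totals instead, the median over all features was −2.37 in TAP-Mmi1, −5.05 in GFP-Mmi1 and 2.63 for the difference. The signs of the results moved with this shift of all features.

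With TMM scaling, both strains showed higher IP/WCE ratios for these genes than for the median feature, whereas with library totals most ratios were below 0 on the log2 scale. In TAP-Mmi1, 19 of 44 were higher (43.2%, against 29.2% of all features) and 1 was lower (2.27%, against 30.7%), with a median log2 of 1.26. In GFP-Mmi1, 16 were higher (36.4%, against 11.1% of all features) and none was lower (against 6.44%), with a median of 1.55. None was lower in GFP-Mmi1 at an unadjusted p under 0.05 or by DESeq2 either. With library totals edgeR called 0 higher and 20 lower in TAP-Mmi1 (45.5%, against 84.7% of all features) and 0 higher and 35 lower in GFP-Mmi1 (79.5%, against 98.2%), with none higher at an unadjusted p under 0.05 in either. With the culture as a block, since IP and WCE of a replicate are from 1 culture, the 19 became 10. Fewer genes were called higher in either strain when any 1 replicate was left out. The shares of all features with the block and in those fits are not given here, so no result is read from these shifts.

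Within each strain the best-supported ratios were those of the well-counted genes. The channel gene SPAC977.17 had 1342 and 1424 IP counts in TAP-Mmi1 cells and 164 and 119 in the control, and its log2 IP/WCE was 1.32 ± 0.14 (edgeR adjusted p = 9.9e-05) and 1.66 ± 0.15 (adjusted p = 5.0e-04). The fluoride export gene fex1 stood at 1.76 ± 0.21 (adjusted p = 2.1e-04) in TAP-Mmi1 and at 1.15 ± 0.24 (adjusted p = 0.016) in the control. Only 26.4% of its windows are unique, and its call in the control did not hold in every fit that left out a replicate. For dak2, whose windows are all unique, the values were −0.51 ± 0.23 (adjusted p = 0.095) in TAP-Mmi1 and 2.27 ± 0.25 (adjusted p = 0.0014) in the control. SPAC977.14c was the 1 gene that was lower in TAP-Mmi1, at −1.29 ± 0.15 (adjusted p = 1.7e-04), and was higher in the control, at 1.36 ± 0.15 (adjusted p = 0.0015). The antiporter gene nhe1 stood near the median feature in TAP-Mmi1 (−0.01 ± 0.33) and at −0.73 ± 0.40 in the control, and passed in neither (adjusted p = 0.97 and 0.24). All these values are with TMM scaling.

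The largest ratios belonged to rare transcripts. The pyruvate decarboxylase gene pdc102 had 18 and 3 counts in IP and 6 and 14 in WCE of TAP-Mmi1 cells, and 21 and 10 in IP and 12 and 12 in WCE of the control. Its log2 IP/WCE was 2.83 ± 0.94 (edgeR adjusted p = 0.032) in TAP-Mmi1 and 5.47 ± 0.96 (adjusted p = 0.0093) in the control, with TMM scaling. Both calls were lost without either GFP-Mmi1 replicate.

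With TMM scaling the difference between strains was mostly in the other direction. With library totals the median of these genes turned above 0 but stayed below the median of all features. The IP/WCE ratio of TAP-Mmi1 over the control was higher for 1 gene (2.27%, against 18.9% of all features) and lower for 9 (20.5%, against 23.7%), with a median log2 of −0.44, and −0.63 with the genes at 0 in the control IP placed at their bound. The share of lower genes is near the background, and that of higher genes is below it. With library totals edgeR called 23 higher (52.3%, against 89.5% of all features) and none lower (against 0.469%), and none was lower at an unadjusted p under 0.05.

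**Figure D4:**
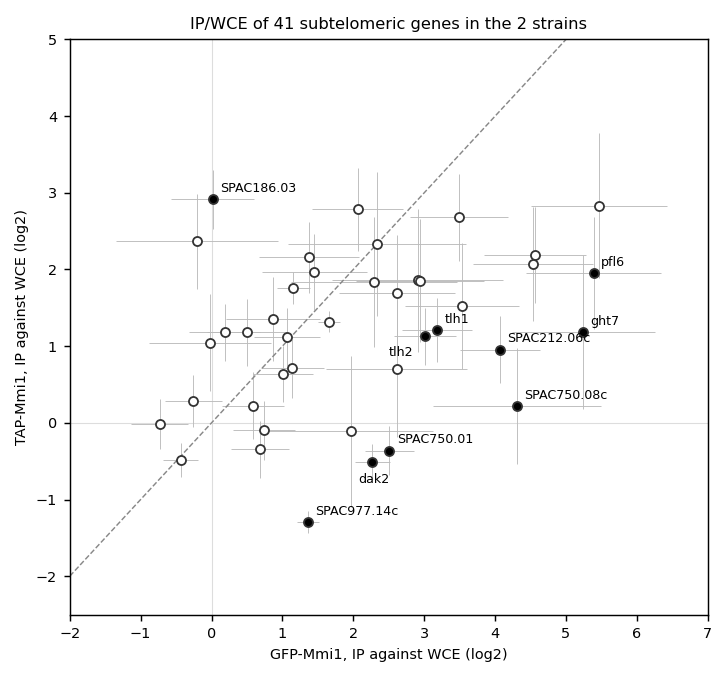
Log2 IP/WCE in GFP-Mmi1 (horizontal axis) and in TAP-Mmi1 (vertical axis) for 41 of the 44 tested genes, with SE bars; the other 3 had no count in the GFP-Mmi1 IP. Filled points are the 10 genes whose IP/WCE ratio differed between strains, and the dashed line marks equal ratios. With TMM scaling SPAC186.03 lies above the line and the other 9 named genes lie below it; with library totals tlh1, tlh2 and SPAC977.14c turn to 0.70, 0.80 and 0.045.

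SPAC186.03, the asparaginase gene shown above, was the gene that was higher. It had 309 and 357 IP counts in TAP-Mmi1 cells but 2 and 10 in the control. In WCE the normalised CPM was 6.17 and 7.27 against 5.72 and 4.69, a log2 difference of 0.37 ± 0.16 that did not pass (edgeR adjusted p = 0.14). The normalised IP/WCE ratio was 7.61 and 7.48 in TAP-Mmi1 and 0.296 and 1.93 in GFP-Mmi1. The TAP-Mmi1 replicates nearly coincided and lay above both control replicates. The log2 difference over the control was 2.90 ± 0.65 (edgeR adjusted p = 0.0096), and with library totals it was 5.58. Leaving out either TAP-Mmi1 replicate ended the call of SPAC186.03 (adjusted p = 0.11 and 0.12), and without GFP-Mmi1 replicate 1 or 2 the difference was 1.97 or 4.67.

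Only 40.9% of the windows of SPAC186.03 are unique, and 59.1% are shared with SPBPB21E7.09. Both features together held 1439 and 1353 IP counts in TAP-Mmi1 cells against 42 and 23 in the control, and their sum gave 2.61 ± 0.30 over the control (edgeR adjusted p = 4.0e-04). The related gene SPAC977.12 behaved otherwise. With IP counts of 321 and 422 against 59 and 89, and WCE counts of 4008 and 3456 against 3775 and 3296, its ratio was 0.647 and 0.773 in TAP-Mmi1 and 0.539 and 0.967 in the control. The groups overlapped, and the difference was −0.05 ± 0.33 (adjusted p = 0.92).

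Among the 9 genes that were lower over the control, the enzyme genes SPAC977.14c, dak2 and SPAC750.01 had the smallest SE. The normalised IP/WCE ratio of SPAC977.14c was 0.378 and 0.436 in TAP-Mmi1 and 2.27 and 2.90 in GFP-Mmi1, a log2 difference of −2.65 ± 0.21 (edgeR adjusted p = 8.4e-05). For dak2 it was 0.639 and 0.766 against 5.92 and 3.65, a difference of −2.77 ± 0.34 (adjusted p = 5.7e-04). For SPAC750.01 it was 0.631 and 0.909 against 5.43 and 5.99, a difference of −2.87 ± 0.46 (adjusted p = 0.0020). In all 3 the TAP-Mmi1 replicates lay below the control. With library totals the differences were 0.045, −0.09 and −0.18, all below the median of all features on that scale, and none passed. The channel gene SPAC977.17, which overlaps dak2, had ratios of 2.48 and 2.50 against 3.51 and 2.79, a difference of −0.34 ± 0.20 that did not pass (adjusted p = 0.20).

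The helicase genes were recovered above the median feature in both strains and, relative to that median, less so in TAP-Mmi1. This held with TMM and with library totals. IP counts of tlh1 were 1223 and 1301 in TAP-Mmi1 cells against 139 and 101 in the control. Its normalised IP/WCE ratio was 2.29 and 2.33 in TAP-Mmi1 and 20.9 and 5.23 in GFP-Mmi1, which is a log2 IP/WCE of 1.21 ± 0.42 and of 3.18 ± 0.49. The difference over the control was −1.97 ± 0.62 (edgeR adjusted p = 0.037), and for tlh2 it was −1.88 ± 0.56 (adjusted p = 0.029). The low WCE counts of the control, 229 and 692 for tlh1, enter this ratio as its denominator. With library totals the differences turned to 0.70 for tlh1 and 0.80 for tlh2, and neither passed. Both stayed below the median of all features on that scale. Leaving out TAP-Mmi1 replicate 1 or 2 ended the calls (adjusted p = 0.22 and 0.25 for tlh1, 0.20 and 0.22 for tlh2). Without GFP-Mmi1 replicate 1 or 2 the difference was −1.18 or −3.18 for tlh1 and −1.28 or −2.84 for tlh2.

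For SPAC212.06c the ratio was 1.88 and 2.00 in TAP-Mmi1 and 15.3 and 19.3 in GFP-Mmi1 (log2 difference −3.11 ± 0.69, edgeR adjusted p = 0.0087), on 8 and 7 counts in the control IP. With the culture as a block the adjusted p was 0.072, and without GFP-Mmi1 replicate 2 it was 0.0515. The malic enzyme gene SPAC750.08c had ratios of 0.683 and 1.41 against 34.5 and 15.9 (−4.09 ± 1.36, adjusted p = 0.044), on 3 and 4 counts in the control IP. The normalised IP levels of SPAC212.06c were 1.26 and 1.47 CPM in TAP-Mmi1 against 1.88 and 1.76 in GFP-Mmi1. Those of SPAC750.08c overlapped, at 0.252 and 1.01 against 0.705 and 1.00. The low WCE counts of the control, 18 and 13 for SPAC212.06c and 3 and 9 for SPAC750.08c, enter the ratios as their denominator.

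The flocculin-like glycoprotein gene pfl6 and the hexose transporter gene ght7 complete the list. The ratio of pfl6 was 1.55 and 8.86 against 27.6 and 71.6 (log2 −3.43 ± 1.15, edgeR adjusted p = 0.045). That of ght7 was 4.75 and 0.633 against 13.8 and 56.3 (−4.06 ± 1.36, adjusted p = 0.045). No library held more than 26 counts of either gene, and the replicates of a strain lay up to several-fold apart. With the culture as a block the adjusted p was 0.17 for pfl6 and 0.11 for ght7, and the calls of SPAC750.08c, pfl6 and ght7 were lost in at least 3 of the 4 fits that left out 1 replicate.

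**Figure D5:**
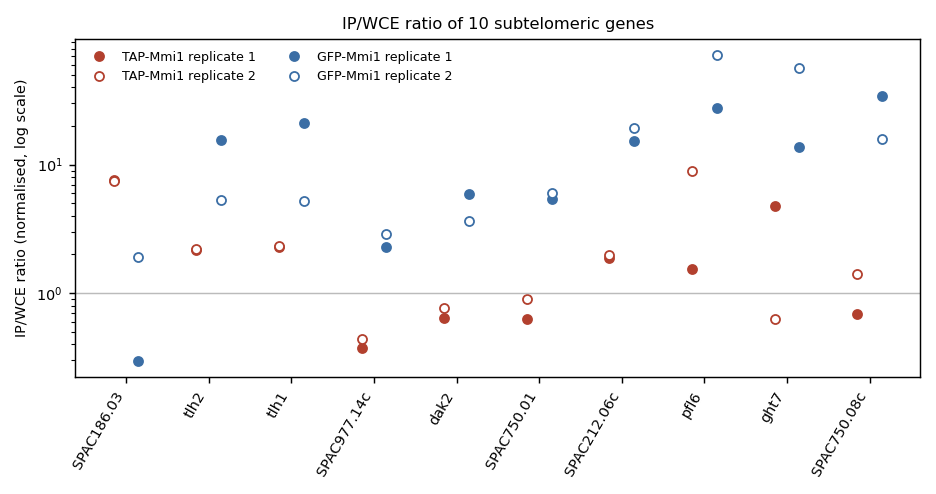
Normalised IP/WCE ratio (log scale) in each replicate for the 10 genes whose ratio differed between strains, ordered by log2 difference; red is TAP-Mmi1, blue GFP-Mmi1, filled points replicate 1 and open points replicate 2, and the grey line marks a ratio of 1. With TMM scaling SPAC186.03 has TAP-Mmi1 ratios of 7.61 and 7.48, above the control, while in the other 9 genes both control replicates lie above both TAP-Mmi1 replicates; library totals turn tlh1, tlh2 and SPAC977.14c to log2 differences of 0.70, 0.80 and 0.045.

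At the top of the ranking stood genes without a count in the control IP, for which the fitted value is no measure of size. SPAC186.06, an isomerase gene, had IP counts of 32 and 12 in TAP-Mmi1 cells against 0 and 0 in the control. With the control set at 3 counts a library, the mean IP/WCE ratio of the control was limited to 11.02. The mean of SPAC186.06 in TAP-Mmi1 was 11.25, a bound of 1.02-fold. Its replicates were 16.2 and 6.33, the second below that limit, and the gene did not pass (edgeR adjusted p = 0.078). For ftm1 (17 and 9 counts), the methyltransferase gene SPAC750.03c (11 and 2) and the lactate dehydrogenase gene SPAC186.08c (2 and 3) the mean TAP-Mmi1 ratio was below the limit set in the same way, so no difference could be detected at this depth. The ftm5 gene, with 32 and 21 counts against 2 and 0, gave a log2 difference of 2.57 ± 1.19 (edgeR adjusted p = 0.12). SPBCPT2R1.03 had no count in any IP library and at most 2 counts in a WCE library.

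Of the silencing and telomere factors, 7 of 32 were higher (21.9%, against 18.9% of all features) and 6 lower (18.8%, against 23.7%) over the control with TMM. With library totals all 32, clr4 included, were higher, against 89.5% of all features. Of the 81 tested neighbouring features 10 were higher (12.3%) and 15 lower (18.5%) with TMM. With library totals 54 were higher (66.7%, against 89.5% of all features) and 2 lower (2.47%, against 0.469%). With TMM, the largest difference among the factors was that of chp2, at 3.26 ± 0.30 (edgeR adjusted p = 1.7e-04). The corresponding value of clr4 was −1.60 ± 0.14 (adjusted p = 1.2e-04).

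The study lists features by a ratio rule in its supplementary data, which was applied to the 56 genes with a count in every WCE library. It asks for a mean IP/WCE ratio of deposited counts over 2 times that of the control and a relative SD under 0.3 in TAP-Mmi1. The rule kept 21 of the 56 (37.5%, against 58.9% of 6898 features), among them ftm1, which has no control IP count and so no ratio over the control. Of the other genes kept, ftm5 and SPAC186.03 had the largest ratios over the control, of 34.8 and 34.1, and that of ftm5 rests on 2 and 0 control IP counts. The mean ratio of SPAC186.03 was 1.06 in TAP-Mmi1 and 0.0312 in the control. Raw ratios are not scaled for the different rRNA load of the IP libraries. With TMM sizes the rule kept 3 of the 56, against 16.4% of features. The part of rRNA in this change was not tested.

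The 15 genes tested in neither fit had at most 12 counts in any library, among them ftm2, ftm3 and ftm6, the dehydrogenase gene ayr2 and its copy SPBC1348.09, and the Vel1p domain genes. Fitted with edgeR without the filter on low counts, none of these 15 was called in WCE, also at an unadjusted p under 0.05. In IP/WCE with TMM, 7 of the 15 were higher in TAP-Mmi1 and 5 in GFP-Mmi1, ftm2, ftm3 and ftm6 in both, and 0 were lower. The shares of all features in the unfiltered fit are not given here, so no result is read from these counts. Over the control 0 were higher and 1 was lower, both also at an unadjusted p under 0.05. That gene was ftm6, with IP counts of 4 and 7 against 12 and 6 and WCE counts of 5 and 4 against 3 and 2 (log2 −3.80 ± 1.10, adjusted p = 0.026, with TMM and not fitted with library totals). Summed with their copy SPBPB2B2.17c, ftm2, ftm3 and ftm6 had IP counts of 17 and 23 against 38 and 21, and WCE counts of 12 and 8 against 9 and 12. Their IP/WCE ratio over the control was −2.76 ± 0.81 (edgeR adjusted p = 0.027), on these few counts.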

How the data were processed

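The authors sequenced RNA of IP and WCE in paired-end mode and deposited 1 table of raw read counts per feature for each of the 8 libraries, with no normalization. The submitters' processing notes name bcl2fastq 2.18.12, cutadapt 1.15 and Bowtie2; the genome build, the annotation, the strand setting and the treatment of reads with several matches are not given in the sources used here. The row that names no gene, 0.00177% to 0.0552% of counts, was left out. Positions, copies and sequences come from RefSeq assembly ASM294v3, in which 6813 of 6973 features matched by locus tag.

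Tests ran in R 4.3.3 with edgeR 4.0.16 (TMM, filterByExpr by group, robust quasi-likelihood F test, Benjamini-Hochberg over all features). The IP/WCE contrasts used all 8 libraries and the strain contrast the 4 WCE libraries, because IP replicates were known to vary more (biological coefficient of variation 16.6% over all 8 libraries and 8.33% over the WCE). SE is the log2 value divided by the square root of F. Replicates are biological duplicates by the design text. IP and WCE of a number come from 1 culture, and their replicate differences correlated at 0.089 in TAP-Mmi1 and 0.026 in GFP-Mmi1 over 6827 features. Intervals and floors (3 counts) cover counting error only. Alternatives were DESeq2 1.42.0, library totals, no filter, rRNA left out, replicate blocks, each replicate left out, unique genes only and, added after seeing the data, summed copies and a minimum log2 of 1.

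The 60 genes and the comparison lists were chosen with earlier results of these data known. Named were tlh1, up to 12 genes with the largest called log2 in each of the 2 contrasts, the 5 highest and 5 lowest IP/WCE over the control, the 5 highest and 5 lowest WCE levels, and genes at 0 in a whole group; copies and comparison genes were added after seeing their values. One listed factor, pcu4, was not matched. Figures were drawn in Python with matplotlib.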

Additional observations from a re-analysis of the deposited data

Results flagged for a closer look

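The IP/WCE ratio differed between the 2 strains, by the test of that difference (edgeR, adjusted p under 0.05), in 10 genes, given here as the log2 ratio of TAP-Mmi1 over GFP-Mmi1. It was 2.90 for SPAC186.03. It was −1.88 for tlh2 and −1.97 for tlh1, which share nearly all their sequence and are not independent of each other. With library totals in place of TMM the values of tlh1, tlh2 and SPAC977.14c turn above 0, as does the median of all features. The log2 ratio was −2.65 for SPAC977.14c, −2.77 for dak2 and −2.87 for SPAC750.01. It was −3.11 for SPAC212.06c, −3.43 for pfl6, −4.06 for ght7 and −4.09 for SPAC750.08c, all of them with 22 counts or fewer in each control IP library. Groups of 2 libraries were too small for a search for outlying samples.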

How the results depend on the processing

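The scaling moved these results most. With library totals in place of TMM, the IP/WCE ratio in GFP-Mmi1 was higher for 0 and lower for 35 genes (16 and 0 with TMM), that in TAP-Mmi1 was higher for 0 and lower for 20 (19 and 1), the ratio over the control was higher for 23 and lower for 0 (1 and 9), and 8 genes were lower in TAP-Mmi1 WCE (4). The medians turned to −3.48 in GFP-Mmi1, −1.08 in TAP-Mmi1, 2.21 over the control and −0.11 in WCE, and over the control SPAC977.14c turned to 0.045, tlh1 to 0.70 and tlh2 to 0.80. The median of all features moved as well, and each of these medians stayed on the same side of it as with TMM. Leaving rRNA out before TMM tested 55 genes and gave 29 higher in TAP-Mmi1 and 21 higher in GFP-Mmi1. DESeq2, like the sum of copies, gave 2 higher over the control. The shares of all features in these fits are not given here, so no result is read from these counts. With the WCE difference fitted over all 8 libraries, 2 were higher and 0 lower. Of the 16 tested genes with at least 50% unique windows, 7 were higher in GFP-Mmi1 (against 11.1% of all features) and 4 in TAP-Mmi1 (against 29.2%). Over the control 0 were higher and 4 lower (against 18.9% and 23.7%). In WCE 4 were higher and 2 lower (against 13.0% and 10.5%). Counts fall with fewer genes by construction, and whether the shares differ from those of all 44 genes was not tested. The ratio rule kept 3 of 56 with TMM sizes (against 16.4% of features) and 13 of 56 at 4 times the control (against 39.1%). With copies summed it kept 10 of 37 (against 58.9%).

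With the culture as a replicate block, 10 genes were higher in TAP-Mmi1 and 3 of the 10 calls over the control were lost (SPAC212.06c, pfl6 and ght7). In WCE the replicate numbers only name the samples, whose differences correlated at 0.053 between strains, and with the number as a block 7 were higher and 3 lower, SPAC212.12 and SPAC977.06 being lost. The block changed no other call of these 2 contrasts.

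Leaving out 1 replicate at a time gave 6 to 12 higher and 0 to 1 lower in GFP-Mmi1, 7 to 18 higher and 1 to 2 lower in TAP-Mmi1, 0 to 2 higher and 5 to 7 lower over the control, and 8 to 18 higher and 1 to 7 lower in WCE. The lone library of a group was then taken to vary like the others. The cause of these shifts was not tested. Counts limit most values: in the GFP-Mmi1 IP 36 and 42 of the 60 genes had under 10 counts.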
